A study of Ovis aries with 8 samples.

Results

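*VEGFA*, *FLT1* and *EDN1* were followed in 8 hypothalami of late-gestation sheep fetuses, 1 Agilent array per fetus. They are 3 of the 875 genes named on the array. Every non-control probe whose design name or description names one of them was taken, which gave 8 of 15008 probes: 2 for *VEGFA*, 5 for *FLT1* and 1 for *EDN1*, which the design calls preproendothelin-1. In 4 fetuses estradiol-3-sulfate was infused into a lateral cerebral ventricle at 1 mg per day by an osmotic mini-pump. Their 4 co-twins were the controls, called vehicle here. One label describes saline infusion in the controls and another calls them untreated. The infusion lasted 7 to 12 days in one label and 7 to 10 days in another. Pumps were placed at 120 to 127 days of gestation, and hypothalami were collected at 130 to 134 days. No genetic change is named for either group. The labels do not say which treated fetus was the twin of which control.

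Vascular endothelial growth factor A, the product of *VEGFA*, is a secreted growth factor that drives endothelial cells to divide and sprout, and makes vessels leaky. Its receptors are VEGFR-1, the product of *FLT1*, which binds the ligand tightly and signals weakly, and VEGFR-2, the product of *KDR*, which carries most of the growth signal. *FLT1* also gives a soluble form without the membrane-spanning part, which traps the ligand. *EDN1* encodes the precursor of endothelin-1, a peptide that constricts vessels through receptor A on smooth muscle. Receptor B, on endothelium and astrocytes, relaxes vessels and clears the peptide. In brain, astrocytes and neurons are known sources of VEGFA and vessels are a main site of VEGFR-1. Estradiol-3-sulfate is a conjugate that steroid sulfatase can turn back into estradiol.

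Sequences of *VEGFA*, *FLT1* and *EDN1* probes are shown because probes of one gene did not behave alike. They were read from the array files, 5′ to 3′. The *VEGFA* probes start at bases 356 and 355 of the same RefSeq mRNA record and share 59 of 60 bases, given in capitals, so they are nearly the same measurement made on separate spots.
VEGFA, base 356: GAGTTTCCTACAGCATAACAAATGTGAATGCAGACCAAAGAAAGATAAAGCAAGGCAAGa
VEGFA, base 355: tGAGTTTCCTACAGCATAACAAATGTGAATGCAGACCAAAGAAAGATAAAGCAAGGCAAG
A total of 3 records supply the *FLT1* probes, all partial coding sequences of sheep mRNA. The first, described as VEGF receptor-1, gave 1 probe, printed whole.
FLT1, base 147 of the receptor-1 record: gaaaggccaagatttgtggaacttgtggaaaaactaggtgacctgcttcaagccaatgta
The second record is described as soluble VEGF receptor-1 and gave a pair of probes, at bases 114 and 135, that share 39 bases. Whether they are particular to the soluble transcript was not tested. The last record gave probes at bases 604 and 603, which share 59 bases and lay at background on nearly all arrays. The first 30 bases of the single *EDN1* probe are printed for identity.
EDN1, base 1080: ccccgtgaagatttttctaaggaatgcaca

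Levels are log2 processed intensity relative to the 75th percentile of the same array, and differences are estradiol sulfate minus vehicle on that scale. A level of one probe cannot be set against that of another, because probes bind unequally. The arrays of the treated fetuses were brighter. Their 75th percentile of processed intensity was 1584 to 2251, against 969 to 1609 on vehicle arrays, and 77.0% to 83.1% of their spots were well above background, against 67.8% to 77.4%. All 8 arrays lay on 1 slide, with estradiol sulfate in one slide column and vehicle in the other, so an effect of slide column cannot be told apart from treatment. Arrays of equal replicate number shared a slide row. Before scaling, 29.2% of the 11748 probes tested had every treated fetus above every vehicle fetus and 0.017% every one below. After scaling these shares were 3.14% and 2.77%. No probe passed an adjusted p of 0.05 in limma (0%), and the smallest adjusted p was 0.249. An unadjusted p under 0.05 was found for 709 probes (6.04%) higher in estradiol sulfate fetuses and 356 (3.03%) lower. With arrays scaled to their median the counts turned to 345 higher and 753 lower, and with the deposited log2 values to 344 and 760. In the scaling used here the excess of higher probes lay mostly among the dim ones. Of the 1748 tested probes that were well above background on 4 to 7 arrays, 16.5% were higher at that p and 0.286% lower, and the shares were 4.2% and 3.51% of the 10000 probes with a flag on every array. The *VEGFA* and *EDN1* probes belong to the bright set and the *FLT1* probes that could be tested to the dim one. Of all probes tested 57.5% had a log2 difference above 0, and the counts of list genes above 0 are to be read beside that share. In whole tissue, fewer cells of a type and less RNA per cell cannot be told apart.

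*VEGFA* was 1.52-fold brighter in estradiol sulfate fetuses, a difference that did not pass after adjustment. The probe at base 356 read -0.34, -1.09, -0.46 and -1.27 in estradiol sulfate replicates 1 to 4, against -1.65, -1.58, -1.52 and -0.80 in vehicle replicates 1 to 4. Treated fetuses 1 and 3 lay above every vehicle fetus, treated fetuses 2 and 4 lay below vehicle fetus 4, and the groups overlapped through that one vehicle fetus. The level averaged -0.79 ± 0.46 in estradiol sulfate fetuses and -1.39 ± 0.40 in vehicle fetuses (SD, n = 4 each). The log2 difference was 0.60 with a 95% interval of 0.010 to 1.19 (limma, unadjusted p = 0.047, adjusted p = 0.54).
The probe at base 355 gave the same picture. Its level was -0.57, -1.33, -0.70 and -1.30 in estradiol sulfate replicates 1 to 4, against -1.71, -1.81, -1.72 and -0.93 in vehicle replicates 1 to 4. Its log2 difference was 0.57 ± 0.25 (SE, limma, unadjusted p = 0.047, adjusted p = 0.54). On each array the base 356 probe read higher than the base 355 probe, by 0.032 to 0.25, and the SD of this gap over the 8 arrays was 0.085. The spread between fetuses of a group, 0.40 to 0.46 as an SD, was larger than that repeat error between spots. Both probes were well above background on all 8 arrays. Where arrays were centred on their median, or the authors' deposited log2 values were used, the median log2 difference of all probes moved by -0.10, and the unadjusted p of the base 356 probe became 0.11. With the slide row, which is the replicate number, as a block its unadjusted p was 0.079.

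*FLT1* was brighter in estradiol sulfate fetuses on 1 probe, where no vehicle array was well above background, and gave little or no signal on 3 others. On the receptor-1 probe at base 147 the level was -3.56, -4.44, -4.55 and -4.02 in estradiol sulfate replicates 1 to 4, against -5.58, -5.11, -5.25 and -4.62 in vehicle replicates 1 to 4. Every treated fetus lay above every vehicle fetus, the nearest being treated fetus 3 and vehicle fetus 4. As processed intensity these were 143, 93.8, 95.8 and 97.9 units in the treated fetuses and 33.6, 42.9, 34.0 and 39.5 units in the vehicle fetuses. The spot was well above background on all 4 estradiol sulfate arrays and on none of the 4 vehicle arrays, so the probe entered the test through the treated arrays alone. That pattern of flags held for 123 of the probes tested (1.05%), and the opposite pattern for 0. On this scale the ratio of group means was 1.99-fold. The fold bound equals that ratio, since each vehicle reading was above the dimmest flagged signal of its array. It is therefore no firm minimum. The measured log2 difference was 1.00 ± 0.26 (SE, limma, unadjusted p = 0.0040, adjusted p = 0.43), from -4.14 ± 0.45 in estradiol sulfate fetuses and -5.14 ± 0.40 in vehicle fetuses (SD, n = 4 each). With another background correction, normexp with quantile scaling, it was 0.35 (limma unadjusted p = 0.035). That is less than the 0.73 of *EDN1* and the 0.54 of *VEGFA* at base 356 in the same setting.

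The probe at base 114 of the soluble receptor-1 record read -4.16, -5.72, -5.39 and -4.68 in estradiol sulfate replicates 1 to 4, against -5.45, -5.59, -5.64 and -5.84 in vehicle replicates 1 to 4. Treated fetuses 1 and 4 stood clear of the vehicle fetuses, treated fetus 3 was barely above the highest of them, and treated fetus 2 lay within their range. It was well above background on 4 estradiol sulfate arrays and 1 vehicle array. Its log2 difference was 0.64 with a 95% interval of -0.047 to 1.33 (limma, unadjusted p = 0.064, adjusted p = 0.57). Without estradiol sulfate replicate 1 the difference was 0.37, and with normexp and quantile scaling it was 0.093.
The remaining 3 *FLT1* probes passed too few background flags to be tested. The one at base 135 of the soluble record was well above background on treated array 1 alone, and read -5.47, -6.66, -6.23 and -6.40 in estradiol sulfate replicates 1 to 4, against -7.27, -7.42, -6.60 and -6.87 in vehicle replicates 1 to 4. The probe at base 604 of the last record was above background on treated array 3 alone, at -5.29 there and between -8.29 and -6.46 on the other 7 arrays. Its neighbour at base 603, with 59 of the same bases, was above background on none of the 8 arrays, so the single reading at base 604 was not repeated by it. Values of these probes on arrays without a flag are bounds set by background and carry no order between fetuses.

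*EDN1* was 1.83-fold brighter in estradiol sulfate fetuses, again without passing adjustment. Its probe read 0.19, -1.38, -0.51 and -1.01 in estradiol sulfate replicates 1 to 4, against -1.43, -2.0, -1.15 and -1.61 in vehicle replicates 1 to 4. Treated fetuses 1, 3 and 4 lay above every vehicle fetus, and treated fetus 2 lay within the vehicle range. As processed intensity the probe gave 1926, 780, 1580 and 787 units in the treated fetuses, and 598, 370, 583 and 318 units in the vehicle fetuses. The level averaged -0.68 ± 0.68 in estradiol sulfate fetuses and -1.55 ± 0.36 in vehicle fetuses (SD, n = 4 each). The log2 difference was 0.87 with a 95% interval of 0.14 to 1.60 (limma, unadjusted p = 0.024, adjusted p = 0.50). The spot was well above background on all 8 arrays. Treated fetus 1 was the highest of the 8 on *EDN1* and on the tested *VEGFA* and *FLT1* probes. Without it the log2 difference of *EDN1* was 0.58 (unadjusted p = 0.053), that of *VEGFA* at base 356 was 0.45 (unadjusted p = 0.13), and that of *FLT1* at base 147 was 0.80 (unadjusted p = 0.010).

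**Figure D1:**
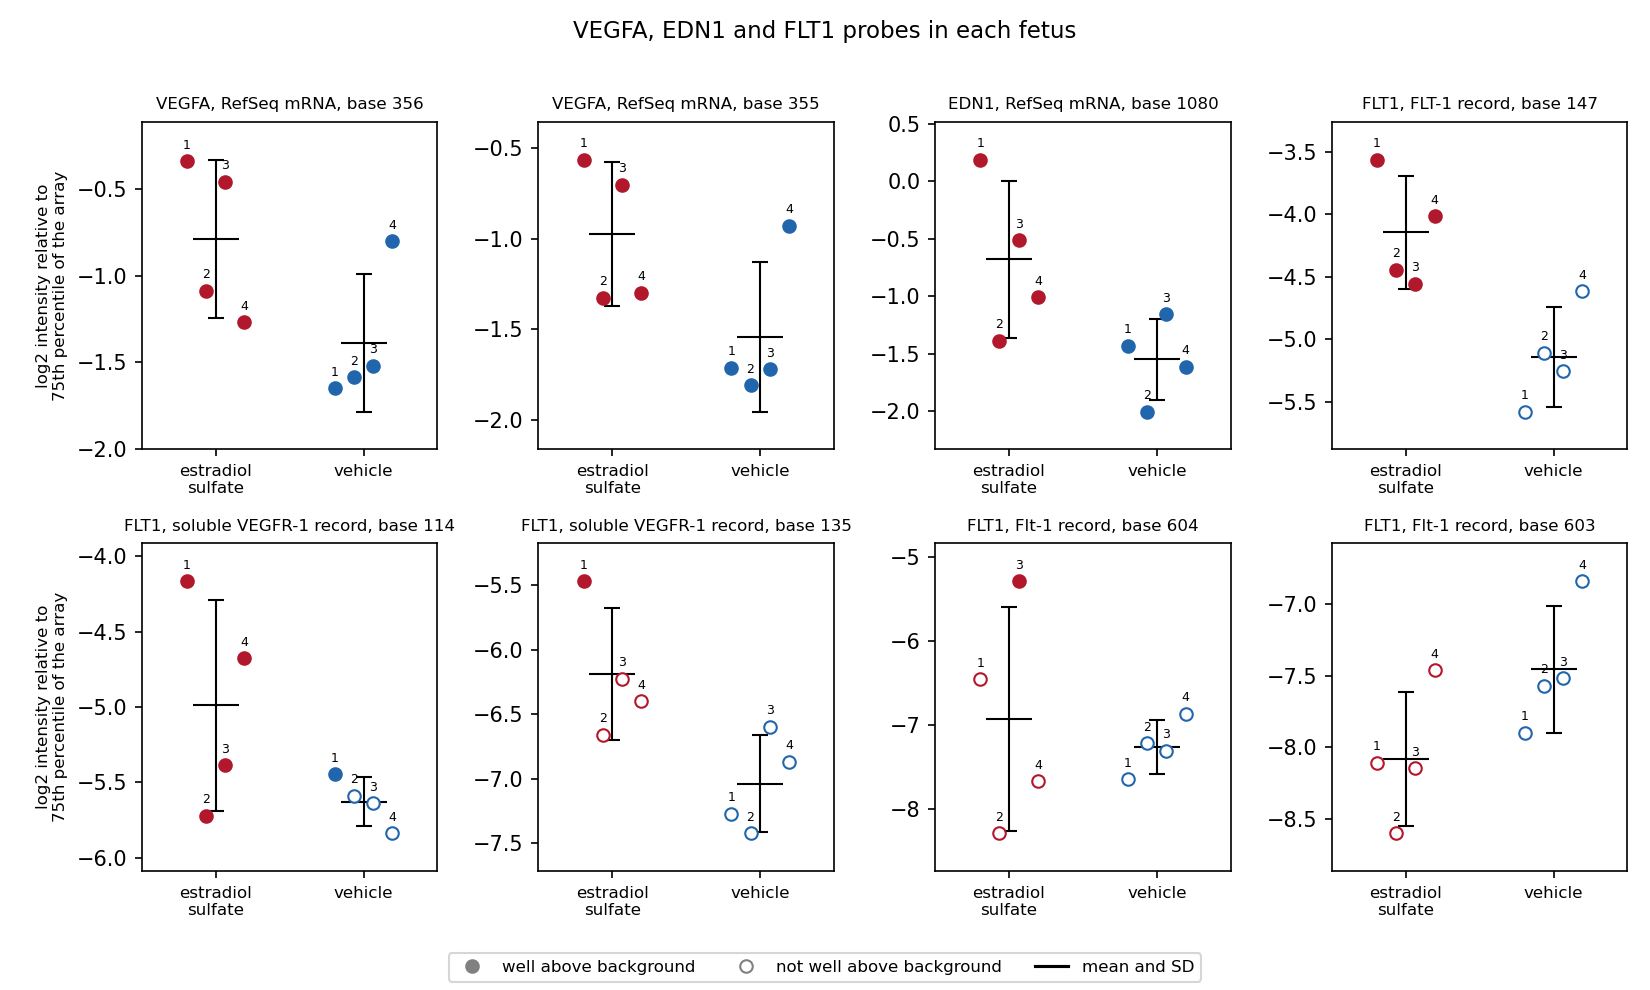
Log2 processed intensity relative to the array's 75th percentile for each of the 8 probes, with estradiol sulfate fetuses at the left and vehicle fetuses at the right of each panel. Points are fetuses numbered by replicate, filled where the spot was well above background and open where it was not, and bars give the mean and SD over 4 fetuses. The groups are apart on the FLT1 probe at base 147, where all 4 vehicle points are open, and overlap on the VEGFA and EDN1 probes.

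**Figure D2:**
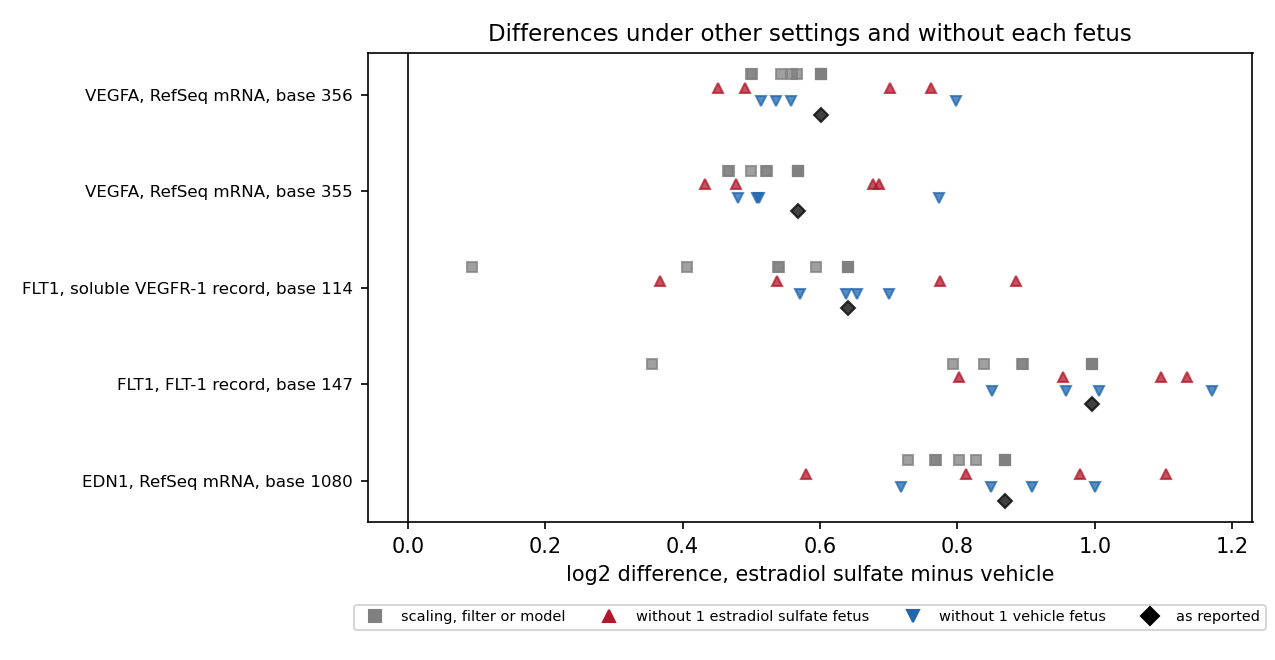
Log2 difference of the 5 probes that could be tested, estradiol sulfate minus vehicle, under other scalings, filters and models (grey squares), without each treated fetus (red triangles), without each vehicle fetus (blue triangles) and as reported (black diamonds). All values lie above 0, and the widest spreads are on the FLT1 probes, at 0.35 to 1.17 (base 147) and 0.093 to 0.89 (base 114).

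Ligand was set against receptor within each fetus by subtracting log2 receptor from log2 ligand on the same array, which removes the array's own brightness. A change in this difference between groups means that the members of a pair moved unequally. In all, 14 pairs of probes were compared with an exact permutation test over the 70 splits of the 8 fetuses, whose smallest two-sided p is 0.029, and p-values were adjusted over the 14 pairs. No pair passed after adjustment. *VEGFA* at base 356 minus *FLT1* at base 147 was 3.22, 3.36, 4.10 and 2.75 in estradiol sulfate replicates 1 to 4, against 3.93, 3.52, 3.74 and 3.82 in vehicle replicates 1 to 4. The vehicle values are lower bounds, since *FLT1* was not well above background there. Treated fetuses 1, 2 and 4 lay below every vehicle bound, and treated fetus 3, at 4.10, cannot be ranked against them. The group means were 3.36 ± 0.56 in estradiol sulfate fetuses and, taken over the bounds, 3.75 ± 0.17 in vehicle fetuses (SD, n = 4 each), a difference of -0.40 (exact permutation p = 0.26, adjusted p = 0.44). Without estradiol sulfate replicate 3 it was -0.64 (exact permutation p = 0.029, adjusted p = 0.13) and without estradiol sulfate replicate 4 it was -0.19. With normexp and quantile scaling the difference was 0.19, so its direction is not settled. An SD over bounds does not measure the spread of vehicle fetuses. For the same reason nothing is concluded from the permutation p-values of this pair. Against the soluble-record probe at base 114 the means were 4.20 ± 0.70 in estradiol sulfate fetuses and 4.24 ± 0.55 in vehicle fetuses (SD, n = 4 each; exact permutation p = 0.94, adjusted p = 0.94). That probe was well above background on 1 vehicle array, so most of its vehicle values are bounds too. The other 3 *FLT1* probes also entered this family of pairs, and there the receptor reading was mostly background.

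*EDN1* was set against the endothelin receptors, whose probes of highest signal were well above background on all 8 arrays. *EDN1* minus *EDNRA* at base 1126 was -1.18, -2.24, -1.49 and -2.34 in estradiol sulfate replicates 1 to 4, against -2.77, -3.21, -2.58 and -2.43 in vehicle replicates 1 to 4. Every treated fetus lay above every vehicle fetus, the nearest being treated fetus 4 and vehicle fetus 4. The difference was 0.93 (exact permutation p = 0.029, the smallest possible, and adjusted p = 0.20). *EDN1* minus *EDNRB* at base 358 was 2.09, 0.71, 1.54 and 0.91 in estradiol sulfate replicates 1 to 4, against 0.60, 0.25, 0.88 and 0.52 in vehicle replicates 1 to 4. Treated fetus 2 lay within the vehicle range and the other 3 above it (difference 0.75, exact permutation p = 0.057, adjusted p = 0.20). Without estradiol sulfate replicate 1 this difference was 0.49. On the second probes of these receptors, which were above background on 6 and 7 of the arrays, the difference was 0.68 and 0.69 (exact permutation p = 0.14 and 0.20, adjusted p = 0.40 for both). Without that fetus those values were 0.31 and 0.27.

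**Figure D3:**
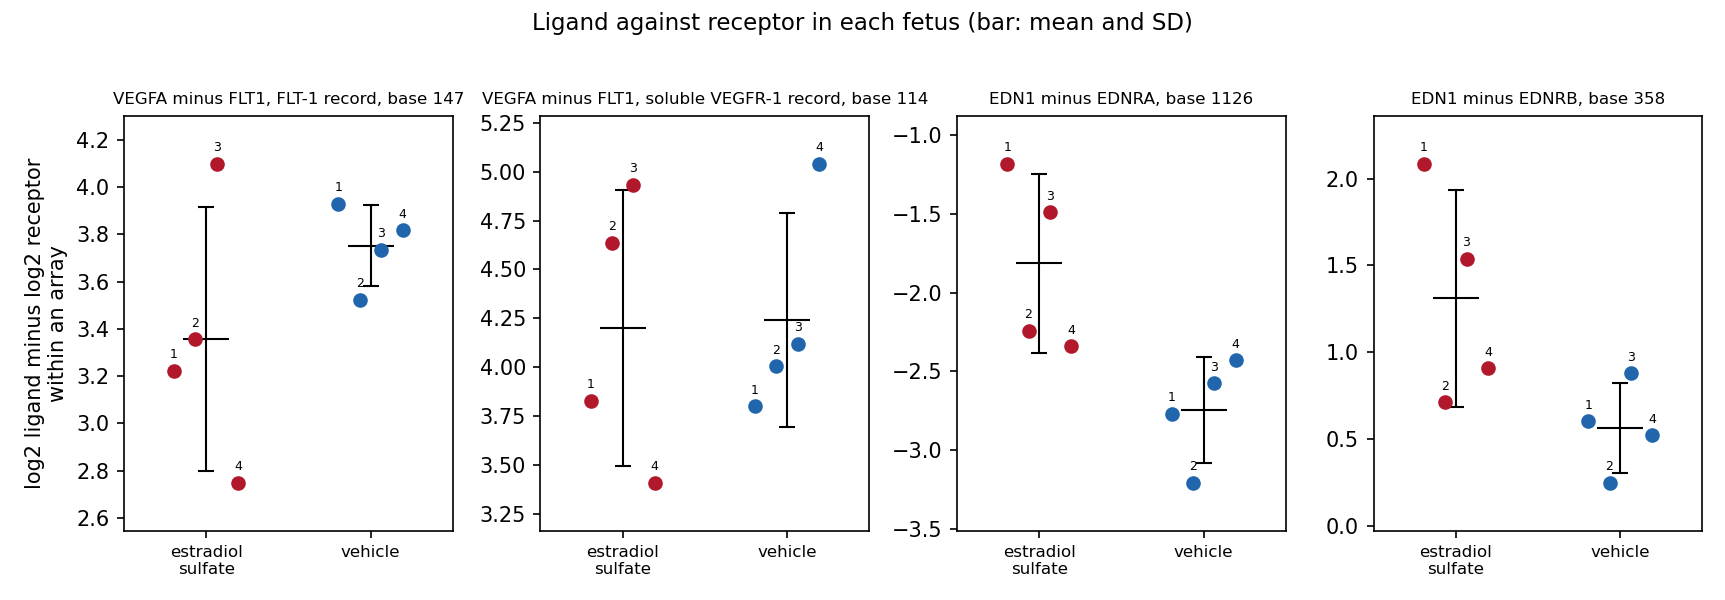
Log2 ligand minus log2 receptor within each array for VEGFA (base 356) against 2 FLT1 probes and for EDN1 against EDNRA and EDNRB, with estradiol sulfate fetuses left of vehicle fetuses. Points are fetuses numbered by replicate, and bars give the mean and SD over 4 fetuses. The groups are apart for EDN1 minus EDNRA, at -2.34 to -1.18 in estradiol sulfate fetuses and -3.21 to -2.43 in vehicle fetuses. They overlap for EDN1 minus EDNRB and for VEGFA minus the soluble-record FLT1 probe, where most vehicle points are lower bounds. For VEGFA minus the receptor-1 FLT1 probe every vehicle point is a lower bound. Whether the groups overlap in that panel cannot be told.

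Over the 8 fetuses, *VEGFA* at base 356 and *FLT1* at base 147 had Pearson r = 0.75 (exact permutation p = 0.034, adjusted p = 0.096 over 14 pairs) and Spearman rho = 0.76 (exact permutation p = 0.037, adjusted p = 0.13). Without the 2 fetuses farthest from the median of *VEGFA*, r was 0.68, and after the group means were subtracted it was 0.53. With the *FLT1* probe at base 114, *VEGFA* at base 356 had r = 0.43 (exact permutation p = 0.29), and -0.22 without the 2 farthest fetuses. At base 147 the *FLT1* values of the 4 vehicle fetuses were not well above background, so no relation within the vehicle group can be read from them. The r of 0.53 rests in part on these values. Permutation over all 8 fetuses takes no account of group, so its p can also reflect a shift of both genes between groups. For *EDN1* and *EDNRB* at base 358 Pearson r was 0.80 (exact permutation p = 0.018, adjusted p = 0.083) and Spearman rho 0.76 (exact permutation p = 0.037, adjusted p = 0.13), with r = 0.95 without the 2 farthest fetuses and 0.69 after the group means were subtracted. With *EDNRA* at bases 1224 and 1126 *EDN1* had r = 0.38 and 0.28, and with *EDNRB* at base 398 r = 0.28 (exact permutation p = 0.36, 0.51 and 0.51). None of the 14 pairs passed after adjustment. Groups of 4 are too small for a correlation of their own.

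No probe of another VEGF receptor had an unadjusted p under 0.05. *KDR*, the gene of VEGFR-2, read -4.91, -4.86, -4.98 and -4.95 on its probe at base 597 in estradiol sulfate replicates 1 to 4, against -5.30, -5.14, -4.32 and -6.20 in vehicle replicates 1 to 4. The treated fetuses were tightly grouped, the vehicle fetuses were scattered on both sides of them, and 2 of the 4 vehicle arrays were well above background (log2 difference 0.31, limma adjusted p = 0.83). A second *KDR* probe, at base 422, was above background on all 4 estradiol sulfate arrays and on no vehicle array. Its groups overlapped all the same, and no treated fetus lay above every vehicle fetus. Its fold bound, taken on group means, was 1.18 and is no firm minimum. The 95% interval of its log2 difference included 0 (limma adjusted p = 0.59). The probe at base 442 differed by 0.16 (limma adjusted p = 0.93), and the last one had too few flags to be tested. *NRP1*, a co-receptor that presents VEGFA to VEGFR-2, read 0.57 ± 0.19 in estradiol sulfate fetuses and 0.62 ± 0.31 in vehicle fetuses (SD, n = 4 each), a log2 difference of -0.058 with a 95% interval of -0.45 to 0.33. The 3 probes of *NRP2*, a related co-receptor, were at background on at least 7 arrays each. Of the 5 listed VEGF receptor genes 4 were named on the array and 3 could be tested. 2 lay above 0 and 1 below. *FLT1*, represented by the probe at base 147, entered through its treated arrays alone, so its p sets it apart from no other receptor. *VEGFA* was the 1 family ligand named of 6 listed.

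In the endothelin system *EDN1* was the one gene with an unadjusted p under 0.05, and the intervals of its receptors and converting enzyme all included 0. *EDNRA*, the gene of receptor A, read 1.37, 0.86, 0.98 and 1.33 at base 1126 in estradiol sulfate replicates 1 to 4, against 1.34, 1.20, 1.42 and 0.82 in vehicle replicates 1 to 4. The groups covered the same range (log2 difference -0.062, 95% interval -0.46 to 0.34, limma adjusted p = 0.95). *EDNRB*, the gene of receptor B, read -1.90, -2.10, -2.05 and -1.92 at base 358 in estradiol sulfate replicates 1 to 4, against -2.03, -2.25, -2.03 and -2.13 in vehicle replicates 1 to 4. The groups overlapped (log2 difference 0.12, 95% interval -0.13 to 0.37, limma adjusted p = 0.80). *ECE1*, the enzyme that cuts big endothelin to the active peptide, differed by 0.031 (95% interval -0.24 to 0.30, limma adjusted p = 0.97). Of 7 listed endothelin genes 4 were named and tested, 3 above 0 and 1 below, with a median log2 difference of 0.076 beside 0.039 over all probes tested.

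**Figure D4:**
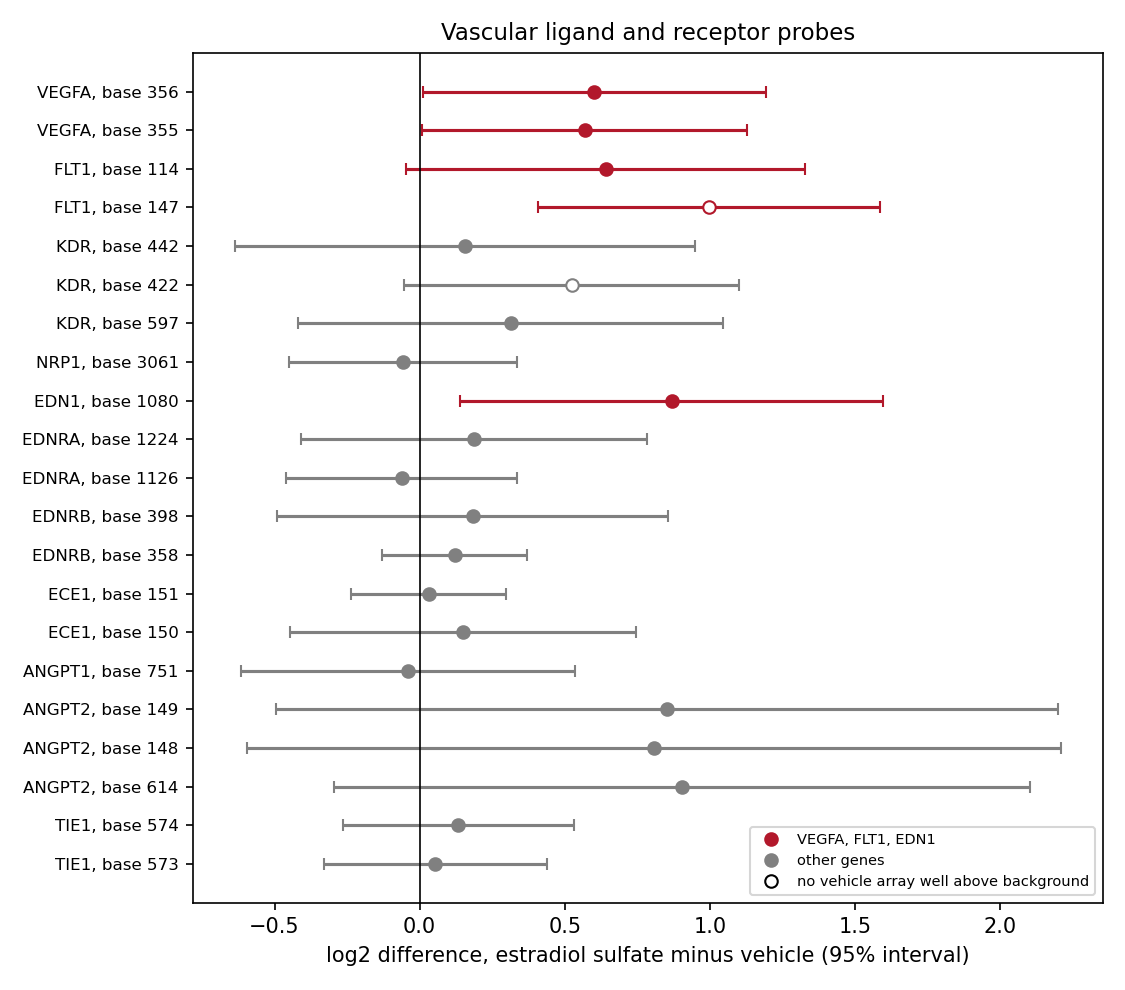
Log2 difference, estradiol sulfate minus vehicle, with its 95% interval for every tested probe of the VEGF, endothelin and angiopoietin genes. Red points are VEGFA, FLT1 and EDN1 and grey points the other genes; open points had no vehicle array well above background. The intervals of both VEGFA probes, the EDN1 probe and the FLT1 probe at base 147 lie above 0, and those of the other probes include 0.

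Angiopoietins act beside VEGFA on vessels: angiopoietin-1, the ligand of the TIE2 receptor encoded by *TEK*, steadies them, and angiopoietin-2 loosens them. *ANGPT2* read -0.10, -2.67, -2.72 and -2.76 on its probe at base 149 in estradiol sulfate replicates 1 to 4, against -2.67, -2.21, -3.0 and -3.77 in vehicle replicates 1 to 4. Treated fetus 1 stood far above the other 7, which overlapped. The log2 difference of 0.85 (limma unadjusted p = 0.19, adjusted p = 0.72) was 0.20 without that fetus. The *ANGPT2* probes at bases 148 and 614 showed the same high fetus. *ANGPT1* differed by -0.040 (95% interval -0.61 to 0.53) and *TIE1*, an orphan receptor of the same family, by 0.054 (95% interval -0.33 to 0.44). The *TEK* probes were well above background on at most 1 array each. Of these 4 genes 3 could be tested, 2 above 0 and 1 below, with none at an unadjusted p under 0.05.

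The vasoactive list had 6 of 28 genes tested, 4 above 0 and 2 below. Its lowest unadjusted p, 0.012 (limma adjusted p = 0.46), was that of *ACE*, the enzyme that makes angiotensin II. Its probe, at base 1607, was designed on a record of the testis-specific form, was above background on all 4 estradiol sulfate arrays and no vehicle array, and had no fold bound above 1. The neighbouring probe at base 1608 of that record was well above background on no array. On another record, the *ACE* probe at base 408 was well above background on no array and that at base 407 on 1 vehicle array alone. *NOS3*, the endothelial nitric oxide synthase, differed by 0.13, *NPPC*, the precursor of C-type natriuretic peptide, by 0.18, and *AGTR1*, the main angiotensin II receptor, by -0.14, with limma adjusted p of 0.87, 0.93 and 0.95. Of the genes that control the response to low oxygen, which drives *VEGFA* transcription in many cells, *HIF1A* differed by -0.59 (limma adjusted p = 0.83) and *EPAS1* by 0.13 (limma adjusted p = 0.90). The *HIF1A* value is that of the probe at base 466, on which treated fetus 4 was the low one. The second *HIF1A* probe, at base 506, differed by 0.012 (limma adjusted p = 0.99).
Genes of glucose use that low oxygen is known to raise were tested for 9 of 30 listed, 7 above 0 and 2 below, beside 57.5% above 0 over all probes. 2 had an unadjusted p under 0.05: *SLC16A1*, a lactate transporter, with a log2 difference of 0.38 ± 0.14, and *HK1*, the first enzyme of glycolysis, with 0.57 ± 0.22 (SE, limma adjusted p = 0.50 and 0.52). *LDHA*, a lactate dehydrogenase subunit, differed by 0.39 and *ALDOA*, an aldolase, by 0.23 (limma adjusted p = 0.60 and 0.62), while the glucose transporter gene *SLC2A1* differed by 0.0066 (95% interval -0.33 to 0.35). The list's median was 0.14.
Among other angiogenic growth factor genes 12 of 21 were tested, 7 above 0 and 5 below, with a median of 0.097. *FGFR2*, a fibroblast growth factor receptor, differed by 0.50 (limma unadjusted p = 0.0062) and *TGFB2*, a transforming growth factor, by 0.62 (limma unadjusted p = 0.035). The *FGFR2* probe was well above background on 4 estradiol sulfate arrays and 2 vehicle arrays. It belongs to the dim set, of which 16.5% were higher and 0.286% lower at a limma unadjusted p under 0.05. *IGF2*, a fetal growth factor, differed by 1.5 and *FGF1*, a fibroblast growth factor, by -0.32. Their limma adjusted p ran from 0.43 to 0.65.

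Cell markers were read beside these values. Of 21 listed endothelial genes 9 were named and 5 tested; all 5 lay above 0, none at an unadjusted p under 0.05, with a median of 0.13, beside 57.5% above 0 and a median of 0.039 over all probes. Their summed level, in multiples of the array's 75th percentile, was 0.90 to 1.29 in estradiol sulfate fetuses and 0.87 to 1.00 in vehicle fetuses. *PECAM1*, a general endothelial adhesion protein, differed by 0.21 and *ROBO4*, an endothelial guidance receptor, by 0.12 (limma adjusted p = 0.75 and 0.86). *SELE* and *ICAM1*, adhesion molecules of activated endothelium, were above background on no array. *VCAM1*, a further adhesion molecule of that kind, was well above background on all 4 estradiol sulfate and all 4 vehicle arrays. It differed by 0.13 (limma adjusted p = 0.97). The list shares *KDR*, *TEK* and *TIE1* with the receptor lists above. All 5 astrocyte genes tested lay above 0, with a median of 0.32 and a summed level of 21.9 to 44.1 in estradiol sulfate fetuses and 15.3 to 39.1 in vehicle fetuses. One of them, the glutamate transporter gene *SLC1A2*, had an unadjusted p under 0.05 (log2 difference 0.62, limma adjusted p = 0.52). *SLC1A3*, a second glutamate transporter gene, differed by 0.43, *AQP4*, a water channel gene, by 0.32 and *GFAP*, of the astrocyte filament, by 0.12 (limma adjusted p = 0.65, 0.84 and 0.96). All 5 meningeal and fibroblast genes tested lay above 0, with a median of 0.43. Of these, the collagen genes *COL6A1* at 1.14 and *COL3A1* at 0.43 (limma adjusted p = 0.38 and 0.52) were above background on all estradiol sulfate arrays and no vehicle array, as *FLT1* at base 147 was, so their differences are set in part by background. *COL1A1* differed by 0.24 and *COL1A2* by 0.29 (limma adjusted p = 0.56 and 0.72).
The tissue was checked by hypothalamic peptide genes, of which 9 of 13 listed were tested. 6 lay above 0 and 3 below, and the smallest unadjusted p were those of *NPY* with a log2 difference of 1.61, *AGRP* with 3.66, *GHRH* with 2.57 and *OXT*, the oxytocin gene, with -0.88 (limma adjusted p = 0.43, 0.45, 0.50 and 0.62). *AGRP* and *GHRH* were each well above background on 4 estradiol sulfate arrays and 2 vehicle arrays, so their differences are set in part by background. *GNRH1*, of gonadotropin-releasing hormone, differed by -1.59 and *SST*, of somatostatin, by -0.30. The *GNRH1* probe was well above background on 3 estradiol sulfate arrays and 3 vehicle arrays. *TTR*, a marker of choroid plexus, read -3.12, 0.29, 1.25 and 2.67 in estradiol sulfate replicates 1 to 4, against -0.54, -0.87, -0.66 and -0.39 in vehicle replicates 1 to 4. Treated fetus 1, the highest on *VEGFA*, *EDN1* and *FLT1*, was the lowest on *TTR*. Of the pituitary genes 4 were tested, 2 above 0 and 2 below: *PRL* differed by -0.40, *CGA* by 1.81, *TSHB* by 1.53 and *LHB* by -0.054 (limma adjusted p = 0.66, 0.75, 0.81 and 0.98), while *GH*, *FSHB* and *POU1F1* were above background on no array. *CGA* was well above background on 4 estradiol sulfate and 2 vehicle arrays, and *TSHB* on 3 and 2, so background enters these differences too. The smooth muscle gene *CNN1* differed by 0.0018, the neurofilament gene *NEFH* by -0.23, *HBB* of red cells by 0.40, and of microglia genes *FCER1G* by -0.44, *CYBB* by 0.59 and *CD14* by 0.11, with limma adjusted p of at least 0.55. The part of any of these markers in the differences of *VEGFA*, *FLT1* and *EDN1* was not tested.

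Among 693 other named genes that could be compared, those whose level over the 8 fetuses was most like each member are given as a description. For *VEGFA* at base 356 they were *BMP4*, *PYGL*, *COL4A3*, *GSTA1-1* and *GRIN1*, with Pearson r from 0.80 to 0.84. For *FLT1* at base 147 they were *ESR2*, the gene of estrogen receptor beta, at r = 0.94, then *IGFBP1*, *SSTR5*, *LOC780455* and *IFN1* at 0.86 to 0.88. For *EDN1* they were *GGTA1*, *LDHA*, *COL3A1*, *JUNB* and *NFKBIA*, at 0.87 to 0.89. Between the members r was 0.75 for *VEGFA* and *FLT1*, 0.75 for *VEGFA* and *EDN1* and 0.69 for *FLT1* and *EDN1*. All points share 8 arrays and the scaling of each array. *FLT1*, *IFN1* and *COL3A1* were each above background on no more than 4 arrays, so background enters their r.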

How the data were processed

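Per the file headers, Agilent Feature Extraction 10.1.1.1 took the spot intensity from 1-colour scans. Within each array the authors' software subtracted background and removed spatial trends, per the file headers, which gave the processed intensity used here. That step does not make arrays comparable with each other, and it puts a surrogate in place of readings near background. A further table with log2 values was deposited. For at least 99.667% of probes it equals log2 processed intensity less 1 constant per array (within 0.001), with column medians of 0.058 to 0.075 and the direction of intensity; how the constant was chosen is unknown.

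Spots of controls, and those flagged as outliers, were dropped. Spots of a probe were then averaged, log2 transformed and set relative to the 75th percentile of the array. The 11748 probes well above background on at least 4 of 8 arrays were tested and 3260 were not. No probe was saturated, no pair of arrays was identical, and the number of arrays limits the precision. Each array is 1 fetus. Groups were compared two-sided in limma 3.58.1 under R 4.3.3 (lmFit and eBayes with no term but group). Benjamini-Hochberg adjustment covered every probe tested, at a threshold of 0.05. The script was tested on simulated data. For a fold bound, the mean of the group with signal was set against the mean of the other, in which each array took the probe's own signal or, where higher, the dimmest signal flagged above background on that array. Ligand minus receptor was compared with exact permutation tests in Python 3.11.15.

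Gene names came from the array design, updated from RefSeq (assembly ARS-UI_Ramb_v3.0, for names and no coordinates): 1428 probes were named, for 875 genes, and 56 of them were read from design descriptions. In lists, a gene is represented by its probe of highest mean signal. The text names every probe of the 3 members, every measured gene of the VEGF, endothelin and angiopoietin lists, the 4 genes of smallest unadjusted p in each other list, and the 5 genes most like each member over the arrays. A few other list genes, such as *SLC2A1*, *GNRH1*, *SST*, *SELE*, *ICAM1*, *VCAM1*, *GH*, *FSHB* and *POU1F1*, were named after their values were seen. The members and lists were chosen with earlier results of these data known. Alternatives were other scalings (quantile, median, cyclic loess, normexp with an offset of 50 and quantile, the deposited log2 values), filters, variance priors, a replicate block and each fetus left out. The sequences of the soluble receptor-1 probes are not reported here.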

Additional observations from a re-analysis of the deposited data

Results flagged for a closer look

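In 170 groups of 4 fetuses checked for a sample far from the others, 15 were picked out, and chance picks out about 1 in 20. On *VEGFA*, vehicle replicate 4 read -0.80 at base 356 with the next vehicle fetus at -1.52, and -0.93 at base 355 with the next at -1.71. Without it the log2 difference of *VEGFA* at base 356 was 0.80 (limma unadjusted p = 0.0090, adjusted p = 0.31). This fetus also had the dimmest array. *VEGFA* minus *FLT1* was 6.19 in estradiol sulfate replicate 4 for the base 356 and base 603 probes, where the receptor was at background, with the next treated fetus at 7.51. For *VEGFA* at base 355 and the soluble-record probe at base 114 it was 4.91 in vehicle replicate 4, with the next at 3.92. *EDN1* minus *EDNRB* at base 398 was 2.49 in vehicle replicate 4, with the next at 3.10.

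Estradiol sulfate replicate 1 stood apart on 3 probes of *ANGPT2*, at -0.10 with the next treated fetus at -2.67 (base 149), -0.30 with the next at -2.87 (base 148) and -2.08 with the next at -3.95 (base 614). It also stood apart on *NPPC*, at 0.41 with the next at -0.89, and on *AQP4*, an astrocyte water channel, at 4.31 with the next at 5.29. *HIF1A* was -6.77 in estradiol sulfate replicate 4, with the next at -4.37. Among vehicle fetuses *FGF1* was -1.19 in replicate 1, with the next at -0.53, and *FCER1G* was 0.99 in replicate 4, with the next at 0.43. *COL6A1* at -6.91 in vehicle replicate 4 and *COL3A1* at -6.10 in vehicle replicate 2 were both readings not well above background.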

How the results depend on the processing

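No probe passed an adjusted p of 0.05 in limma under any of the 18 alternatives. The 5 tested *VEGFA*, *FLT1* and *EDN1* probes stayed above 0 under each alternative that could be run; *FLT1* has no value where probes had to be above background on all 8 arrays. The unadjusted p stayed under 0.05 in 15 of 18 alternatives for *EDN1* (0.58 to 1.1). It did so in 7 of 18 for either *VEGFA* probe (0.45 to 0.80 at base 356, 0.43 to 0.77 at base 355). For the soluble-record probe it did in 3 of 17 (0.093 to 0.89), and for *FLT1* at base 147 in 17 of 17 (0.35 to 1.17). No vehicle array was well above background at base 147, so this steadiness is no support. Adjusted p ranged from 0.22 to 0.97 over these 5 probes.

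Counts of probes at an unadjusted p under 0.05 depended on the setting. Higher after estradiol sulfate were 709 as reported, 396 with quantile scaling, 345 with median scaling, 447 with cyclic loess, 418 with normexp and quantile, 344 with the deposited log2 values and 461 with probes above background on all 8 arrays (fewer probes tested), and 466 to 900 without 1 fetus. Lower were 356 as reported, 753 with median scaling, 760 with the deposited log2 values and 1218 without a filter on dim probes, and 188 to 393 without 1 fetus (188 without estradiol sulfate replicate 2). Among these fits without 1 fetus the lowest count of higher probes, 466, was without vehicle replicate 2. Median scaling and the deposited values move the median of all differences by -0.10; the causes of the other shifts were not tested.

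Same-numbered arrays did not all deviate together (r = 0.24, -0.014, 0.19 and 0.25 for replicates 1 to 4), and treated fetus 2 correlated best with vehicle fetus 4, so the number was not used as a pairing; it is also the slide row. With a replicate block the log2 differences were 0.60 and 0.57 for *VEGFA*, 1.00 and 0.64 for *FLT1* and 0.87 for *EDN1* (unadjusted p = 0.079, 0.066, 0.0068, 0.045 and 0.0042), 789 probes were higher and 369 lower, and 0 passed adjustment. Of the ligand-to-receptor differences none passed adjustment under any alternative. The direction of *VEGFA* minus *FLT1* at base 147 turned with normexp and quantile (0.19 and 0.14 for the 2 *VEGFA* probes). The *ANGPT2* value and the lists without each fetus were added after seeing the data. The median of the low-oxygen control list, -0.23, was 0.17 without estradiol sulfate replicate 4. Dim signal limits *FLT1*.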
